A study of Mus musculus with 53 samples.

Results

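The genes described here encode surface proteins by which pre-HSCs, the embryonic precursors of haematopoietic stem cells (HSCs), are sorted and recognised. They were taken by name, with no cut on measured values: Procr, Kit, Itga2b, Ptprc, Pecam1, Cdh5, Cd34, Cd47 and Ly6a. Earlier results of these data were known when the genes were chosen. Of these 9 genes, 8 are among the 14833 genes of the T1 pre-HSC table, and Ly6a was not analysed here.

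T1 pre-HSCs are the type 1 precursors of the first HSCs and were sorted from E11 mouse embryos, out of the aorta, gonad and mesonephros (AGM). The cells compared were 12 KO cells, numbered 1 to 12, and 9 cells called wildtype, numbered 13 to 22 without 19. KO cells carry the genotype mH19 delta_DMR/+, in which the differentially methylated region that controls the non-coding RNA H19 is deleted. The cells called wildtype are mH19 flDMR/+, so they carry a modified allele too, and each group has the + allele. The sources used here do not give what drove the deletion, the strain of the embryos, or the embryo, litter and sort of a cell. The cells of a genotype therefore stand for 1 sample, and the genotypes were set side by side with no test.

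HSCs arise from haemogenic endothelium, the part of the vessel wall that turns into blood, and pre-HSCs pass through this change while they still carry endothelial proteins. In T1 pre-HSCs the pan-leukocyte phosphatase CD45, product of Ptprc, has not yet reached the surface, and it appears when the cells mature into type 2 pre-HSCs. The published sort of this population, which the labels do not spell out, takes cells that are CD31+ (Pecam1), Kit+ and CD201 high (Procr), with low CD41 (Itga2b) and no CD45. Cdh5, Cd34, Cd47 and Ly6a are used to describe pre-HSCs and HSCs but are not part of that sort.

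Procr and Ptprc stand at the ends of the range measured here, as the members detected in the most and in the fewest cells. The 250 bases before a listed start of each are shown for that contrast, from RefSeq on build GRCm38.p6. Each GGAA, the core of ETS factor sites, is in capitals, and a match on the other strand reads TTCC. The annotated Ptprc gene spans chr1:138062859-138175756, so its printed window lies inside the gene. The annotated Procr gene begins at chr2:155751125, so the end of its window lies inside the gene too.
Procr, chr2:155750967-155751216, plus strand: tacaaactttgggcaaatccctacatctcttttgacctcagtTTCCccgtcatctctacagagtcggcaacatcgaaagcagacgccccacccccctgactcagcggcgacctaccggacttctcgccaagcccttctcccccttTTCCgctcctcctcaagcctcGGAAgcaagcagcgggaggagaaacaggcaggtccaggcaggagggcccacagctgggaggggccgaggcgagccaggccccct
Ptprc, chr1:138175306-138175555, minus strand: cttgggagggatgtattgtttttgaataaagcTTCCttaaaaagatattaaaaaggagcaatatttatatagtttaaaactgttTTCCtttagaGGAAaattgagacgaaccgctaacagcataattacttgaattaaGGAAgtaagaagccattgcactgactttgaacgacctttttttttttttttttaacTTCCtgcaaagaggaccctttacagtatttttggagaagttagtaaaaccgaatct
The Procr window holds 3 matches and the Ptprc window 5, and over all 32851 windows of this length 93.4% hold at least 1, with a median of 3. Neither window holds TGTGGT, the RUNX motif searched, which 14.0% of windows hold on either strand. GATAA, the GATA motif searched, occurs in neither window and in 22.6% of all windows. CANNTG, the E-box searched, occurs 1 time in the Procr window, not in the Ptprc window, and in 66.2% of all windows. The content of G and C was 61.6% in the Procr and 31.6% in the Ptprc window. These matches describe letters only. Of the 9 genes, 6 had an entry in the table of starts, and the first of 2 listed starts of Ptprc is printed. The window of the other Ptprc start holds 2 matches to GGAA, 2 to GATAA and 2 to CANNTG, so the contrast in motifs with Procr depends on the start.

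The data were RPKM per gene and cell, a read density scaled to gene length and library size, so levels can be set side by side between genes. A gene counted as detected at 1 RPKM or more. The depth of the cells is unknown. A gene below that level was not detectable in that cell at this depth, and this does not show that the protein was missing from the surface. KO cells had 1517 to 8408 genes at 1 RPKM or more, and wildtype cells 2067 to 5716. H19 lay at 0 to 186 RPKM in KO cells and at 231 to 1261 RPKM in wildtype cells, with no overlap. Wildtype cell 19 was not used: in 24 of 29 stretches of the table its column is shifted against the gene names, and in no stretch is that so for the other 21 cells. No pair of values within a member's row shared its digits.

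Most members were detected in most cells, whereas Itga2b, Cd34 and Ptprc were found in few. Of the 8 listed members, 5 were detected in at least 50% of the 21 cells, namely Procr, Cdh5, Cd47, Kit and Pecam1. Of all 14833 genes listed, 18.7% reached that share. Ordered by mean log2(RPKM + 1) over the 21 cells, Procr stood at 5.58, Cd47 at 3.82, Pecam1 at 3.33, Cdh5 at 2.69, Kit at 2.16, Itga2b at 1.52, Cd34 at 0.54 and Ptprc at 0.39. No 2 neighbours in this order differed by more than the SD over cells of their difference. The widest step, from Procr to Cd47, was 1.76 with an SD of 2.70, and Procr was the higher of the pair in 15 of 21 cells.

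**Figure D1:**
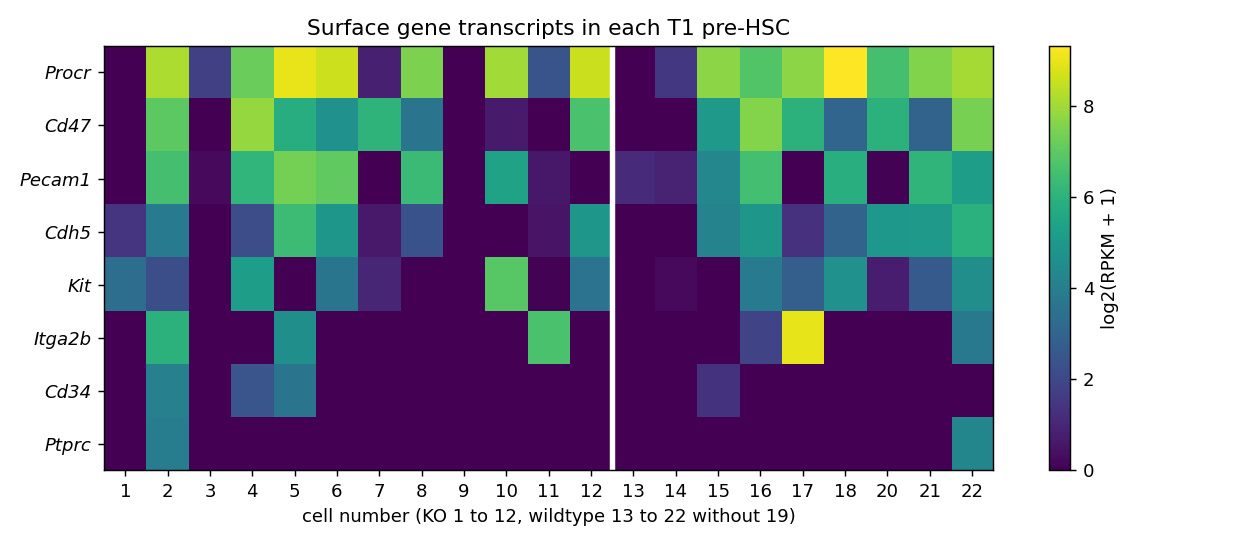
Level of the 8 listed surface genes in each of 21 T1 pre-HSCs, as log2(RPKM + 1); columns are cells, with KO cells left of the white line and wildtype cells right of it, and rows are genes ordered by mean level. Procr is bright in 14 cells and dark in 7, and Ptprc is above 0 in colour in KO cell 2 and wildtype cell 22 only.

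Among the positive markers of the sort, Procr, the endothelial protein C receptor CD201, was the member detected most often. It reached 1 RPKM in 17 of 21 cells, 81.0% with an exact Clopper-Pearson 95% interval of 58.1 to 94.6%. This interval and those below cover counting error over cells only. In KO cells Procr had a lowest value of 0, a median of 160 and a highest value of 517 RPKM, and in wildtype cells the 3 values were 0, 184 and 635 RPKM. The cells fell into a low and a high range: 7 cells lay at 4.30 RPKM or less, and the other 14 at 93.1 RPKM or more, with none between. The low range held KO cells 1, 3, 7, 9 and 11 and wildtype cells 13 and 14, so both genotypes were in each range. For a population sorted on high CD201, Procr transcripts were thus abundant in 14 of 21 cells, 66.7% with an interval of 43.0 to 85.4%.

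Other values also differed between cells, and their part in the low range of Procr was not tested. The 7 cells had 1517, 3181, 3767, 1891, 3162, 2067 and 4051 genes at 1 RPKM or more, for cells 1, 3, 7, 9, 11, 13 and 14 in that order. KO cells 12 and 10, with 1796 and 2260 genes, had Procr at 376 and 259 RPKM. Of 13 mesenchymal markers, 9 were detected in KO cell 11 and 6 in wildtype cell 14, where they summed to 2634 and 415 RPKM. KO cells 1, 3, 7 and 9 and wildtype cell 13 had 3, 2, 1, 3 and 1 detected. The sums there were 606, 11.8, 60.8, 324 and 156 RPKM in the same order. Outside the low range KO cell 5, with Procr at 517 RPKM, also had 6 of these markers detected, with a sum of 261 RPKM, and KO cell 4, with Procr at 143 RPKM, had 2 and a sum of 1308 RPKM. The sum of the 8 listed macrophage markers was 0 to 2.13 RPKM in the 7 cells and 0 to 1951 RPKM in the others, where KO cell 12 had 0 and wildtype cell 21 had 1.24 RPKM. The 30 listed endothelial surface and junction genes were detected in numbers of 4 to 18 in the 7 cells, with 18 in KO cell 7, and in numbers of 6 to 28 in the other cells.

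Kit, the receptor tyrosine kinase for stem cell factor, was detected in 12 of 21 cells, 57.1% with an interval of 34.0 to 78.2%. In KO cells its lowest, median and highest values were 0, 2.38 and 117 RPKM, and in wildtype cells 0, 5.16 and 25.0 RPKM. KO cell 10 held the highest value, and the next highest, 35.3 RPKM, was in KO cell 4. Among cells with Kit detected the median was 11.1 RPKM, against 205 RPKM for Procr among cells with Procr detected. Kit was thus both rarer and lower than Procr in cells sorted as positive for each protein.

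Pecam1, the endothelial and platelet adhesion molecule CD31, was also detected in 12 of 21 cells. Its lowest, median and highest values were 0, 20.5 and 163 RPKM in KO cells and 0.00627, 18.8 and 90.6 RPKM in wildtype cells. Among these values 10 cells lay at 1.22 RPKM or less and 11 cells at 18.8 RPKM or more. KO cell 12 and wildtype cells 17 and 20 had Procr at 376, 205 and 93.1 RPKM but Pecam1 at 0, 0.00627 and 0.0336 RPKM, and Cdh5 was detected in all 3. At least 1 of Pecam1 and Cdh5 was detected in 16 of 21 cells.

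All 3 positive markers together were detected in 8 of 21 cells, 38.1% with an interval of 18.1 to 61.6%. These were KO cells 2, 4, 6 and 10 and wildtype cells 16, 18, 21 and 22, or 4 of 12 KO and 4 of 9 wildtype cells. A further 5 cells had 2 of the markers and 7 cells had 1. KO cell 9 had none of them, nor any other listed member. Procr was found without Kit in 7 cells, and Kit without Procr in 2, KO cells 1 and 7. Pecam1 was found without Procr in wildtype cell 13 only, at 1.22 RPKM.

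Itga2b, the alpha chain of the platelet fibrinogen receptor and an early mark of blood commitment as CD41, was detected in 6 of 21 cells, 28.6% with an interval of 11.3 to 52.2%. The KO cells with it were cell 2 at 61.8, cell 5 at 24.0 and cell 11 at 99.0 RPKM. The wildtype cells with it were cell 16 at 2.79, cell 17 at 499 and cell 22 at 12.6 RPKM. Itga2b was listed at 0 in 14 cells and lay at 0.0200 RPKM in KO cell 4. A surface level called low thus went with transcript values that differed widely between the few cells in which any were detected. In KO cell 11 Procr, Kit and Pecam1 were at 4.30, 0.0257 and 0.535 RPKM beside this Itga2b value. Itgb3, whose product pairs with CD41, was detected in 7 of 21 cells with a maximum of 17.1 RPKM in KO cell 10. Of the 9 listed megakaryocyte and platelet markers, KO cells 2 and 5 had 4 detected each, the most of all cells. KO cell 11 and wildtype cells 16, 17 and 22 had 1 each. Among cells without Itga2b detected, KO cell 4 had 3, and KO cells 6, 7 and 10 and wildtype cells 18, 20 and 21 had 2 each. The platelet receptor gene Gp9 reached 27.6 RPKM in KO cell 5 and Gp1ba 9.94 RPKM in KO cell 2, while Pf4 and Treml1 were listed at 0 in all 21 cells. The part of these markers in the Itga2b values was not tested.

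Ptprc, the negative marker of the sort, was detected in 2 of 21 cells, 9.52% with an interval of 1.17 to 30.4%. It stood at 14.0 RPKM in KO cell 2 and at 18.4 RPKM in wildtype cell 22, at 0.00152 RPKM in KO cell 9 and was listed at 0 in the other 18. KO cell 2 was also the only cell with all 8 listed members detected. There, Procr was at 290, Kit at 3.73, Pecam1 at 94.1, Itga2b at 61.8 and Cd34 at 15.5 RPKM. Wildtype cell 22 had 7 of the 8, with Procr at 269, Kit at 23.3, Pecam1 at 35.4 and Itga2b at 12.6 RPKM. In both cells Ptprc thus came together with Itga2b and with the 3 positive markers, in cells with 5994 and 5222 genes at 1 RPKM or more. Of 8 listed macrophage markers, 3 were detected in KO cell 2 and 1 in wildtype cell 22, with sums of 865 and 71.8 RPKM. Cells with Ptprc listed at 0 reached such values too: wildtype cells 16 and 18 had 3 and 1 detected, with sums of 688 and 1951 RPKM. KO cell 2 also held the highest values of the granulocyte genes Prtn3 and Mpo, 264 and 137 RPKM. The part of these markers in the Ptprc values was not tested.

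Of the members outside the sort, Cdh5 and Cd47 were detected in 14 of 21 cells each, 66.7% with an interval of 43.0 to 85.4%. Cdh5 encodes VE-cadherin, the adhesion protein of endothelial junctions, and had lowest, median and highest values of 0, 2.63 and 82.7 RPKM in KO and 0.00198, 17.0 and 60.9 RPKM in wildtype cells. Cd47, whose product is the "do not eat me" signal read by Sirpa on macrophages, had values of 0, 17.9 and 226 RPKM in KO and 0, 32.0 and 190 RPKM in wildtype cells. Both genes were detected in 13 cells, and neither in 6. The groups overlapped over nearly their whole range for each gene.

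Cd34, a sialomucin of progenitors and endothelium, was detected in 4 of 21 cells, 19.0% with an interval of 5.45 to 41.9%. KO cell 2 had 15.5, KO cell 4 had 4.42 and KO cell 5 had 11.0 RPKM. Wildtype cell 15 had 1.56 RPKM, and all other cells were listed at 0. The 3 KO cells have 5994, 6411 and 8408 genes at 1 RPKM or more, and each has more than any wildtype cell compared. KO cell 6, with 6215 genes, was listed at 0 for Cd34, and wildtype cell 15 had 3128 genes. The part of gene number in the Cd34 values was not tested.

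**Figure D2:**
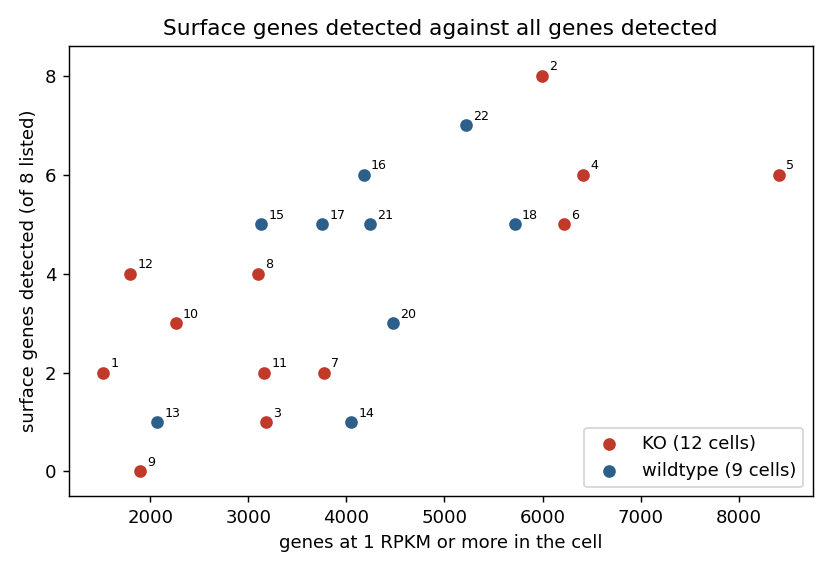
Number of the 8 listed surface genes detected in a cell (vertical axis) against the number of all genes at 1 RPKM or more in that cell (horizontal axis), for 12 KO and 9 wildtype cells labelled by cell number. KO cell 2 has all 8 surface genes and KO cell 9 has 0, and cells with about the same number of genes, such as KO cells 3 and 8, have 1 and 4.

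Cells with more detected genes had more members detected. Over the 21 cells the Spearman correlation of the 2 counts was 0.68, and it was 0.61 over the 12 KO and 0.45 over the 9 wildtype cells. These correlations describe the cells and were not tested, and both counts share the depth of the cell. Pecam1 had the highest value of the 8 members with the number of genes, at 0.69, and Ptprc the lowest, at 0.12. Between KO cells with nearly equal gene numbers, cell 3 with 3181 genes had only Procr, at 2.37 RPKM. Cell 8, with 3101 genes, had 4 members, among them Procr at 176 and Pecam1 at 80.8 RPKM.

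Among the 5 members detected in most cells, Procr and Cdh5 had the highest Spearman correlation over the 21 cells, 0.66, followed by Cdh5 and Cd47 with 0.62 and Procr and Pecam1 with 0.56. Kit and Pecam1 had the lowest, 0.18, and were detected together in 8 cells. Within genotypes, Procr and Cdh5 stood at 0.80 over KO and 0.42 over wildtype cells, and Procr and Kit at 0.26 and 0.65. All 10 pairs share the depth of the cells, and with so few cells and many zeros these values only describe the set.

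For each member detected in most cells, the 2 genes of the table most like it over the 21 cells were taken. They were looked for among 3349 compared genes, meaning genes found in 50% or more of KO or of wildtype cells, without sex-linked and predicted genes. Nearest to Procr were the transcription elongation factor gene Tcea1, with a Spearman correlation of 0.81, and the calcineurin subunit gene Ppp3ca, with 0.81. Kit was nearest to Gabarapl1, an autophagy gene, at 0.86, and Rpl26, a ribosomal protein gene, at 0.72. Pecam1 was nearest to Slc9a3r2, a scaffold protein gene, at 0.82, and the small GTPase gene Rac1, at 0.79. For Cdh5 these were Rcbtb1, at 0.85, and Vwf, the von Willebrand factor gene of endothelium and platelets, at 0.76. Cd47 was nearest to the chaperone gene Cdc37, at 0.79, and the ribosomal protein gene Rps16, at 0.78. These are the highest of many values from the same 21 cells and were not tested.

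The comparison of KO with wildtype cells asks whether deletion of the H19 control region goes with other levels of these surface genes. None of the 5 members that could be compared differed by 1 or more on the log2(RPKM + 1) scale, while 39.4% of all 3867 compared genes did. Cdh5 and Procr lay nearest to that size, both lower in KO cells on average. All differences were smaller than the SD over cells in either genotype, and the cells of the genotypes overlapped for every member. Only genes found at 1 RPKM in 50% or more of the KO or of the wildtype cells were compared, which left out Itga2b, Ptprc and Cd34. Without any 1 cell the number of members past that size ran from 0 to 3, with 3 without KO cell 2, wildtype cell 13 or wildtype cell 14.

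Mean log2(RPKM + 1) of Procr was 5.17 ± 3.77 in the 12 KO cells and 6.13 ± 3.17 in the 9 wildtype cells, with errors as SD over cells, and KO minus wildtype came to -0.96. That of Cdh5 was 2.27 ± 2.25 and 3.26 ± 2.28 in the same order, which leaves -0.99. Cd47 stood at 3.52 ± 3.17 and 4.23 ± 2.89, a difference of -0.71. For Pecam1 the means were 3.31 ± 3.34 and 3.35 ± 2.76, a difference of -0.04. For Kit they were 2.16 ± 2.36 and 2.16 ± 1.97. Over all compared genes the median difference was -0.36, so 3 of the 5 members lay further down than the median and 2 above it.

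Procr transcripts were found in 9 KO cells of 12 and 8 wildtype cells of 9, Kit in 7 and 5, Pecam1 in 6 and 6, Cdh5 in 7 and 7, and Cd47 in 7 and 7. As shares, these are 75.0 and 88.9% for Procr, 58.3 and 55.6% for Kit, 50 and 66.7% for Pecam1, and 58.3 and 77.8% for both Cdh5 and Cd47. Itga2b was found in 3 KO and 3 wildtype cells, Cd34 in 3 and 1, and Ptprc in 1 and 1. The interval of Procr detection was 42.8 to 94.5% in KO and 51.8 to 99.7% in wildtype cells. With so few cells, intervals of this width leave large differences in either direction undetectable.

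**Figure D3:**
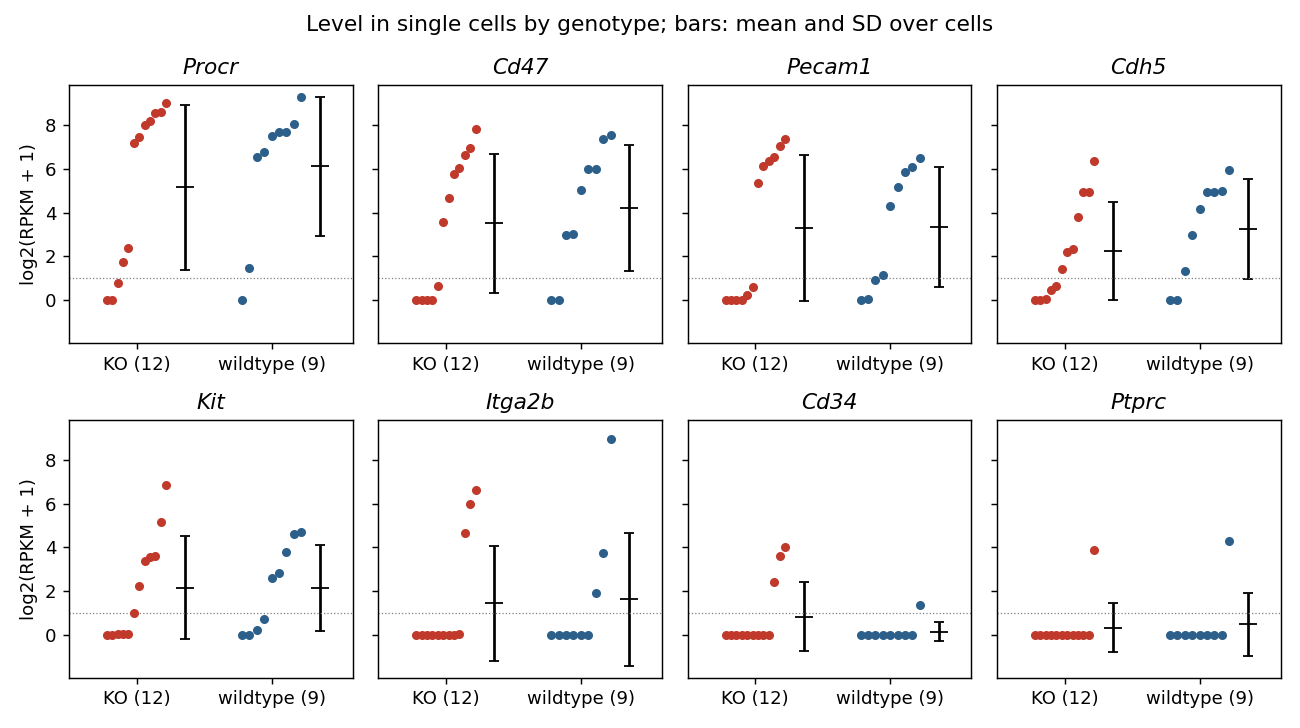
Level of each listed surface gene, as log2(RPKM + 1), in 12 KO (red) and 9 wildtype (blue) cells; each point is a cell, points are spread sideways by rank, the black bars give mean and SD over cells, and the dotted line marks 1 RPKM. KO and wildtype points overlap in every panel, and the mean of Kit is 2.16 in each group.

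The directions of Procr, Cdh5 and Cd47 held under some treatments of the cells and not under others. Over the 9 KO and 9 wildtype cells with at least 2000 genes at 1 RPKM, Procr was at -0.19, Cdh5 at -0.94 and Cd47 at -0.28, still lower in KO, and Pecam1 was at 1.06. Shifting each cell to an equal median adds the same 1.16 to every gene, which by itself puts Procr at 0.20, Cdh5 at 0.17 and Cd47 at 0.45. These values are above 0 but below the median of all genes on that scale, 0.79. With only the 4 KO cells whose number of detected genes is at or above the median of the wildtype cells, Procr was at 2.12, Pecam1 at 3.43, Cdh5 at 1.08 and Cd47 at 2.09, beside a median of 1.28 over the 7672 genes then compared.

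**Figure D4:**
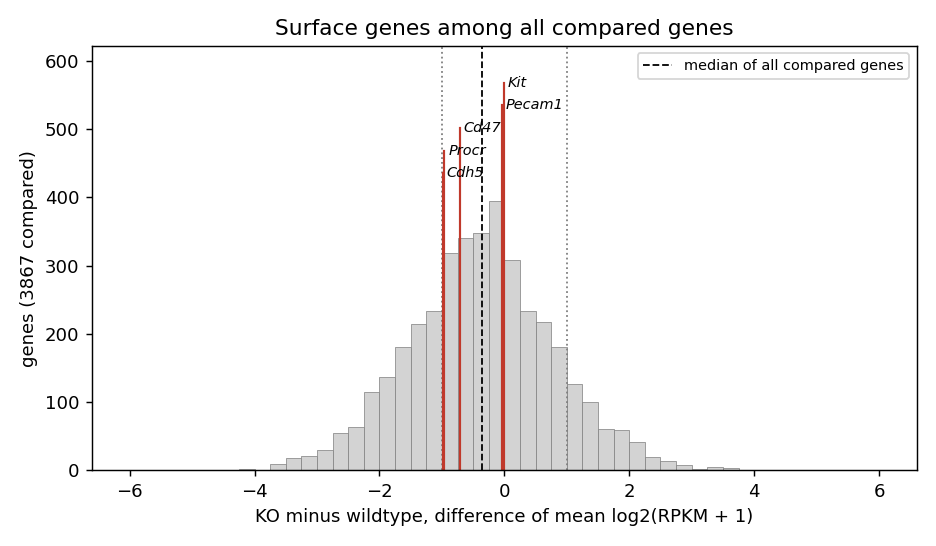
Distribution over 3867 compared genes of the difference KO minus wildtype in mean log2(RPKM + 1), with the 5 compared surface genes as red lines, the median of all genes as a dashed line and the size of 1 as dotted lines. All 5 red lines fall between -1 and 1, from Cdh5 at -0.99 to Kit at about 0.00.

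Genes whose products bind the members or pass on their signals were detected about as widely as genes at large. Of 29 listed ligands, receptors and cytoplasmic partners, 6 were detected in at least 50% of the 21 cells, 20.7% against 18.7% of all genes, and 10 could be compared. KO levels were lower for 7 of these 10 and higher for 3, the median being -0.49 against -0.36 over all genes, and 2 were lower by 1 or more. Highest by mean log2(RPKM + 1) were partners of cadherins and integrins: Ctnnb1, beta-catenin, at 4.13, Ctnna1, alpha-catenin, at 4.02, and Tln1, talin, at 3.97. Fermt3, kindlin-3, a partner of integrins, was detected in all 21 cells at a mean of 3.52. The largest differences were those of Ptpn6, the phosphatase SHP-1 that restrains Kit signalling, at -2.71, and Shc1, an adaptor of receptor kinases, at -1.39. Ptpn6 was found in 3 KO and 6 wildtype cells, and Shc1 in 4 and 6.

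Other genes listed for the endothelial surface and junctions were detected to unequal extents. Of 30 listed, 17, or 56.7%, were detected in at least 50% of the cells, against 18.7% of all genes. Those below that level included Kdr in 10 of 21 cells, Tie1 in 8, Dll4 in 5 and Robo4 in 2, and Jam2 was not detected. Cd63, a tetraspanin of endosomes, was detected in all 21 cells with a median of 755 RPKM, Cldn5, an endothelial tight junction protein gene, in 18 with 255 RPKM, and Cd81, another tetraspanin gene, in 18 with 220 RPKM. KO levels were lower for 14 of 20 compared and higher for 6, by 1 or more for 3 and 1 of them, and the median was -0.51. Of all 3867 compared genes 2485 were lower in KO cells and 39.4% differed by 1 or more, so the list's lower share is near that of all genes and its share of large differences is below it. Eng, endoglin, a coreceptor for TGF-beta ligands, was at -2.09 and Calcrl, a receptor for adrenomedullin, at -1.99.

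Of 34 haematopoietic surface genes looked for, 22 are listed. Of these, 6, or 27.3%, were detected in at least 50% of the cells, against 18.7% of all genes and 56.7% of the endothelial list. The most widely detected were integrin chain genes that endothelium also uses, Itgb1 in 18 of 21 and Itga6 in 17. Coro1a, an actin-binding protein gene of leukocytes, was detected in 13, Laptm5 and Bst2, tetherin, in 12 each, and Cd44 in 11. KO levels were lower for 4 of 7 compared and higher for 3, the median being -0.19, and 1 differed by 1 or more, Coro1a, at -1.27.

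CD201 is held in the membrane by its own span, whereas Ly6a protein, Sca-1, hangs on a lipid anchor, glycosylphosphatidylinositol. Of the Ly6 family, 6 genes were listed and none was detected in 50% of the cells. Cd59a, a complement inhibitor gene, was found in 6 of 21 cells and Ly6e in 4. Of 26 listed genes that build the lipid anchor, 4, or 15.4%, were detected in at least 50% of the cells, against 18.7% of all genes, among them Dpm3 in 15, Pigx in 14 and Pigp in 13 cells. KO levels were lower for 3 of 5 compared and higher for 2, the latter being Pigp at 1.45 and Pigb at 1.90.

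Defining genes of other cell types varied in how widely they were detected, and many of those looked for are not listed. Listed were 7 of 15 erythroid, 8 of 14 macrophage, 9 of 13 megakaryocyte and platelet, and 13 of 13 mesenchymal genes. Of epithelial and neural genes 6 of 12 were listed, and of lymphoid and granulocyte genes 4 of 15. A gene that is not listed was not measured here. Shares detected in at least 50% of the cells ran from 0 to 16.7% per list, against 18.7% of all genes. Of 7 listed erythroid markers none reached 50% of the cells, and their sum was 0 in 14 of 21 cells and at most 239 RPKM, in wildtype cell 20, where Hbb-bt, a globin gene, led with 209 RPKM. Of 8 macrophage markers, Lyz2, lysozyme, was detected in 12 cells with up to 1951 RPKM in wildtype cell 18, Tyrobp in 2 cells, and C1qb was listed at 0 throughout. The macrophage sum ranged from 0 to 865 RPKM in KO and from 1.24 to 1951 RPKM in wildtype cells. Of 13 mesenchymal markers, Acta2, smooth muscle actin, was detected in 13 cells, and the sum ranged from 0.0285 to 2634 RPKM in KO and from 1.26 to 415 RPKM in wildtype cells. Of 9 megakaryocyte and platelet markers, Vwf, which endothelium also makes, was detected in 18 cells and Clec1b in 2. Krt18, a keratin gene among 6 listed epithelial and neural markers, was detected in 14 cells with a difference of -2.03, lower in KO cells. Of 4 lymphoid and granulocyte markers, Prtn3 was detected in 4 cells, Cd79b in 3 and Mpo in 2. The part of such markers in the levels of the members was not tested.

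The table of adult HSCs, from bone marrow of C57 mice, holds 6910 rows as given here and none of the 9 members among them. A gene without a row has no value there, so this says nothing about expression of the members in adult HSCs. The adult table does list other transcripts at the loci of members. Those within 50000 bases of a member all carry predicted-gene or clone names. RP23-361M12.2 (chr1:138161819-138167683, build mm10) lies inside Ptprc. It was at 0 in 20 of 25 adult cells and at 1 or more in 4, with 497 in cell 14 and 15.8 as the next highest value. Gm16897 (chr1:194955758-194976960) overlaps the end of Cd34. It was at 1 or more in 13 of 25 cells, with a median of 1.39 and a maximum of 19.3. Gm28068, 9271 bases from Ly6a, was at 1 or more in 9 of 25 cells with a maximum of 9.27. The values were treated as FPKM, the unit is not named in the table, and without strand reads of Ptprc or Cd34 and of the transcripts that overlap them cannot be told apart.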

How the data were processed

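RNA of single T1 pre-HSCs from E11 embryos was measured with a template-switching method, per the labels. The deposited values are RPKM with 1 column per cell, with Cufflinks 2.1.0 and build mm10 named in the submitters' processing notes. Aligner, annotation and filters: not given in the sources used here. The deposited adult values were treated as FPKM for the same reason; 2 adult columns share a name and were not used, which left 25 cells.

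Columns were assigned by cell number. RPKM divides by the total of the cell, so a few abundant genes lower all others. Whole reads could not be recovered, so depth per cell is unknown. Computed here were shares of cells at 1 RPKM or more with exact Clopper-Pearson 95% intervals, and differences of mean log2(RPKM + 1), wildtype subtracted from KO. The pseudocount of 1 shrinks differences of low genes. Large meant 1 or more in size. Genes named from lists are the 3 highest and the 3 with the largest differences per list, and those named for likeness the 2 highest per member; not all are printed. Pf4, Treml1, Gp9, Gp1ba, C1qb, Fermt3, Kdr, Tie1, Dll4, Robo4, Jam2, Laptm5, Cd44 and the adult transcripts were added after their values were seen. Members and lists were chosen with earlier results of these data known. The difference of means was tested on simulated, normally distributed values, and the rank correlation against a second calculation. Detection counts and intervals were not tested in this way. Python 3.11.15, numpy 2.4.6, pandas 2.3.3 and scipy 1.17.1 were used.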

Additional observations from a re-analysis of the deposited data

Results flagged for a closer look

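In the 9 wildtype cells, 1 cell stood far above the others by Dixon's criterion for 3 members on the log2(RPKM + 1) scale. The chance rate of this criterion, about 1 in 20 groups, holds for normally distributed values. The rows of these members hold many values at 0, so that rate does not apply to them. Itga2b was at 499 RPKM in wildtype cell 17, and the next highest cell had 12.6 RPKM. Ptprc was at 18.4 RPKM in wildtype cell 22 and listed at 0 in the other 8. Cd34 was at 1.56 RPKM in wildtype cell 15 and listed at 0 in the other 8. Itga2b was also detected in wildtype cells 16 and 22, whereas Ptprc and Cd34 were each detected in 1 wildtype cell, which then stands apart by construction.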

How the results depend on the processing

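With detection at 5 RPKM, 3 members in place of 5 were detected in most cells. The count of cells with all 3 positive sort markers was 9 at 0.1 RPKM, 7 at 5 RPKM and 7 or 8 without any 1 cell. The count with Ptprc ran from 1 to 2 without any 1 cell, and was 1 without KO cell 2 or wildtype cell 22. In place of 0 members, the number with a difference of 1 or more was 3 with a pseudocount of 0.1, 1 with equal totals, 2 with equal medians, 2 with medians over cells, 1 over cells with at least 2000 genes at 1 RPKM, and 6 of 7 compared when only the 4 KO cells richest in detected genes were kept. Over all compared genes, 39.4% had such a difference in the main comparison, 56.8% with the pseudocount of 0.1 and 62.0% with those KO cells. Without any 1 cell the number ranged from 0 to 3, and it rose without KO cell 2, 4, 5, 6, 8, 10 or 12 or wildtype cell 13, 14, 17 or 18; for these settings the cause was not tested. Procr, Cdh5 and Cd47 stayed lower in KO without any 1 cell. No paired analysis was possible because the embryo, litter and sort of a cell are not given. Unknown depth limits every count of undetected genes.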
